A study of Homo sapiens with 12 samples.

Results

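The Pumilio response elements described here are the 12 that keep the 8-base consensus TGTANATA at every fixed base except position 3, where T was replaced by A, C or G. Position 1 is the base at the 5′ end, and position 5 may hold any base, so each of the 3 new bases occurs with 4 different bases at position 5. The rule that picks the members uses their sequence and no measured value, although it was written with earlier results of these data known. The members are 12 of the 1006 entries listed in all 12 libraries, 1005 of which are 8-base elements. The other entry is listed as EMPTY. The assay is RBPscan, in which an RNA-binding protein fused to an adenosine deaminase leaves edits in a recorder mRNA that carries the binding element. It was run in HEK293T, an established line derived from human embryonic kidney. The recorder mRNAs of the pool each held 1 element next to a recorder hairpin, except that no element is listed for EMPTY.

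There were 4 groups of 3 libraries, described by the series design as biological replicates, in cells whose genotype is given as WT. One carried the fusion of human PUM2 with the deaminase domain (hsPUM2-ADARcdMUT) without induction. Another 2 carried the same fusion at 25 ng and 250 ng, and per the series design its expression was induced with doxycycline. The last carried the deaminase domain without PUM2 (ADARcdMUT) at 1000 ng. The sample titles give these amounts without saying of what, so it is not known whether 1000 ng lies on the same scale as 25 and 250 ng. All 4 groups shared the recorder pool, and protein levels were not given in the sources used here, so the groups are known by these amounts alone. The text on RNA extraction in the labels names zebrafish embryos, whereas the source, the cell line and the series design name HEK293T. Amplicon tables hold no marker genes against which the cell type could be checked.

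PUM2 is one of the human Pumilio proteins, which bind short elements in the 3′ untranslated regions of mRNAs and lower the stability or translation of those mRNAs. The protein is an arc of repeats, each of which reads a single RNA base, and the element begins with the UGU triplet found in nearly all Pumilio sites. Position 3 is the last base of that triplet, so none of the 12 members holds TGT. ADAR enzymes convert adenosine to inosine, which is read as G in sequencing, and a deaminase domain without a binding domain of its own edits wherever it meets a suitable hairpin.

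The sequences are shown because the report turns on a change of 1 base. In the members, written as DNA 5′ to 3′, the capital marks the substituted base at position 3.
TGAAAATA, T3A: tgAaaata
TGAACATA, T3A: tgAacata
TGAAGATA, T3A: tgAagata
TGAATATA, T3A: tgAatata
TGCAAATA, T3C: tgCaaata
TGCACATA, T3C: tgCacata
TGCAGATA, T3C: tgCagata
TGCATATA, T3C: tgCatata
TGGAAATA, T3G: tgGaaata
TGGACATA, T3G: tgGacata
TGGAGATA, T3G: tgGagata
TGGATATA, T3G: tgGatata
Each member was set against the consensus element with the same base at position 5. In these 4 elements the capitals mark the fixed consensus bases.
TGTAAATA, consensus: TGTAaATA
TGTACATA, consensus: TGTAcATA
TGTAGATA, consensus: TGTAgATA
TGTATATA, consensus: TGTAtATA

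Libraries held 11235321 to 25127959 reads, and each member had between 4106 and 36318 reads in a library. The editing level of an element is the percent of its recorder adenosines that were edited, with 7 adenosines in each read. At these depths the 95% Wilson interval of a member's share of edited reads reached 0.368 to 0.913 percentage points to either side of the share. The labels mention no molecular identifiers, so such intervals cover counting error only, and the spread between libraries is the error used below.

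Without induction the members were edited near the level of the rest of the pool. The median over the 12 members was 1.81% ± 0.154 (SD, n = 3), against 1.79% ± 0.0794 for the 4 consensus elements and 1.81% ± 0.0969 for the 652 elements without TGT. With 25 ng of fusion the members' median was 4.46% ± 0.269, and with 250 ng it was 8.14% ± 0.0620. With ADARcdMUT alone it was 1.93% ± 0.194. In all 6 induced fusion libraries the lowest member lay above the highest member of every non-induced and ADARcdMUT library. The induced level was shared with the elements without TGT, which had a median of 4.29% ± 0.172 at 25 ng and 7.80% ± 0.0961 at 250 ng. Of these 652 elements, 561 differ from the consensus by only 1 or 2 substitutions, and the members are among them. They are therefore not a set of elements unlike a Pumilio site.

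The 12 members lay close together at 250 ng. Their mean levels ran from 7.78% ± 0.0823 for TGGAAATA to 8.78% ± 0.137 for TGCACATA, a span of about 1 percentage point. The consensus elements were edited at 11.5% ± 0.195 for TGTAGATA, 13.2% ± 0.328 for TGTAAATA, 13.4% ± 0.379 for TGTACATA and 13.9% ± 0.360 for TGTATATA. In each 250 ng library the highest member, at 8.64% to 8.91%, was below the lowest consensus element, at 11.3% to 11.7%. The same held at 25 ng, where the highest member of a library lay between 4.71% and 5.42% and the lowest consensus element between 5.92% and 6.30%. Without induction the order was mixed, with 4 to 10 of the 12 members below their matched consensus element, and with ADARcdMUT alone 3 to 5 of the 12 were below it.

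In order of their mean level at 250 ng, TGCACATA was followed by TGAACATA at 8.45% ± 0.103, and then by TGCATATA at 8.42% ± 0.283 and TGAATATA at 8.42% ± 0.282. TGGAGATA had 8.16% ± 0.0994, TGAAAATA 8.10% ± 0.228, TGGATATA 8.08% ± 0.0725 and TGCAAATA 8.01% ± 0.239. TGGACATA had 8.001% ± 0.118, TGAAGATA 7.93% ± 0.125 and TGCAGATA 7.87% ± 0.214, with TGGAAATA last. Apart from TGCACATA, whose lowest library (8.64%) was above the highest library of TGAACATA (8.57%), each neighbour in this order overlapped the next in its 3 values. Among the 1006 entries the members ranked from 101 (TGCACATA) to 604 (TGGAAATA) at 250 ng, while the consensus elements ranked 1, 2, 3 and 7.

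Every member rose with induction, as did every other entry. TGCACATA, which has C at both positions 3 and 5, had the largest gain of the 12. Its levels were 1.70%, 1.65% and 1.76% without induction, 4.64%, 5.42% and 4.52% at 25 ng, 8.80%, 8.64% and 8.91% at 250 ng, and 2.26%, 1.99% and 1.79% with ADARcdMUT alone. The 3 fusion groups did not overlap, and the ADARcdMUT libraries all lay above the non-induced ones by small margins. At 250 ng its level was 5.15 times the non-induced mean.

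TGGATATA, which has G at position 3 and T at position 5, had the smallest gain. Its levels were 2.23%, 2.23% and 2.30% without induction, 4.73%, 4.40% and 4.71% at 25 ng, 8.08%, 8.15% and 8.01% at 250 ng, and 2.996%, 2.30% and 2.29% with ADARcdMUT alone. The non-induced values were high for this pool, where TGGATATA ranked 10 of 1006, and with ADARcdMUT alone it ranked 4. At 250 ng it ranked 282 and stood at 3.59 times its non-induced mean, the lowest ratio of the 12. The median ratio of the members was 4.49, and the consensus elements had ratios of 6.58 to 7.68. TGGATATA was also the member with the fewest reads, 4106 to 11580 per library.

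Editing was tested as the log2 odds of an adenosine being edited, with limma on all 12 libraries and Benjamini-Hochberg adjustment over the 1006 entries. An element was called at an adjusted p under 0.05. For 250 ng against no induction, 12 of 12 members were called higher, as were 100% of all entries, with a median member increase of 2.27 log2 odds against 2.21 over all entries. For 25 ng against no induction the members' median increase was 1.33 log2 odds against 1.29 over all entries, and for 250 ng against 25 ng it was 0.92 against 0.92. Against ADARcdMUT alone the members' medians were 2.18 at 250 ng and 1.28 at 25 ng. In each of these 4 comparisons too, 12 of 12 members and 100% of all entries were called higher. The comparisons with no induction share the same 3 control libraries, and so do the comparisons with ADARcdMUT. Because the call covered the whole pool, it says nothing about position 3, and the members were next compared relative to the pool and to the consensus.

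Relative to the median of each library, the members stayed near the pool. For 250 ng against no induction the centred change of the 12 members had a median of 0.07 log2 odds, against 0.01 over all 1006 entries. 1 of 12 members was called higher, against 9.64% of all entries, and 1 of 12 was called lower, against 3.38%. The shares are near the background, so they are not a result about the members as a group. All 4 consensus elements were called higher, by 0.67 to 0.93 log2 odds. Of the 1006 entries, 840 carry 1 or 2 substitutions of the consensus, so the pool median is not that of unrelated sequence. The entry EMPTY was at 2.01% ± 0.111 without induction, where it ranked 91. At 250 ng it was at 7.63% ± 0.0689, below the lowest member mean (7.78%). Its centred change was -0.19 log2 odds, called lower (limma adjusted p = 0.0140).

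The member called higher was TGCACATA. Its centred values were -0.02, -0.23 and -0.04 log2 odds without induction and 0.19, 0.15 and 0.18 at 250 ng, so all 3 induced libraries lay above the pool median and all 3 non-induced ones below it. The change was 0.27 log2 odds (SE 0.0665, limma adjusted p = 0.0131). The member called lower was TGGATATA, whose centred values were 0.37, 0.22 and 0.36 without induction and 0.06, 0.06 and 0.01 at 250 ng. Its change was -0.27 log2 odds (SE 0.0809, limma adjusted p = 0.0368), so this element came down to the pool's level rather than below it.

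Both calls depended on single libraries. The call of TGCACATA was lost without 250 ng replicate 1, 250 ng replicate 3 or non-induced replicate 2, and its limma adjusted p ran from 0.00046 to 0.0615 over 13 alternatives. The call of TGGATATA was lost without any 1 of the 250 ng replicates or without non-induced replicate 1 or 3, and on the arcsine square root scale its limma adjusted p was 0.102. Without non-induced replicate 2, TGAATATA was called higher, and without non-induced replicate 3, TGGAGATA was called lower. The number of members called in either direction, 2 with all libraries, was 0 without 250 ng replicate 1 or 3 and 1 without 250 ng replicate 2 or non-induced replicate 1.

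The remaining 10 members were not called at 250 ng against no induction. TGAACATA changed by 0.19 log2 odds (95% interval 0.04 to 0.35, limma adjusted p = 0.0963) and TGAATATA by 0.18 (0.02 to 0.34, limma adjusted p = 0.127). TGCAAATA, with 0.01 (-0.12 to 0.13), and TGCAGATA, with -0.02 (-0.16 to 0.13), were the closest to no change. The highest upper limit among the 12 members was 0.41, for TGCACATA, which is below the lowest lower limit of a consensus element, 0.54 for TGTAGATA.

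At 25 ng against no induction 1 of 12 members was called higher, against 7.06% of all entries, and 0 were called lower, against 2.19%. This was again TGCACATA, with 0.26 log2 odds (SE 0.0665, limma adjusted p = 0.0204), a call that was lost without 25 ng replicate 2 (0 members called) and without non-induced replicate 2, where TGAATATA was called in its place. TGAATATA was at 0.24 log2 odds with all libraries (limma adjusted p = 0.0550), and TGGATATA was at -0.22 (limma adjusted p = 0.109). The number of members called was 2 in place of 1 on the arcsine square root scale, with a minimum of 5000 reads and with the libraries centred on elements without TGT. In each of these 3 settings the added member was TGAATATA, higher.

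Against ADARcdMUT alone, the members called were partly others. At 250 ng 2 of 12 were called higher, against 10.3% of all entries, and 1 was called lower, against 4.37%. The 2 were TGCAAATA, with 0.24 log2 odds (SE 0.0594, limma adjusted p = 0.0125), and TGAACATA, with 0.26 (SE 0.0721, limma adjusted p = 0.0214). TGGATATA was the one called lower, with -0.34 (SE 0.0809, limma adjusted p = 0.0104).

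TGCAAATA was also the member with the lowest mean with ADARcdMUT alone. TGAACATA was lower in replicates 2 and 3, and in replicate 2 TGAAGATA and TGGAAATA were lower too. The libraries of TGCAAATA stood at 1.67%, 1.70% and 1.67%, against 1.79%, 1.87% and 1.88% without induction. Its 250 ng levels were 7.80%, 7.97% and 8.27%, and it ranked 975 of 1006 with ADARcdMUT alone and 346 at 250 ng. TGAACATA had 2.08%, 1.63% and 1.58% with ADARcdMUT alone and 8.38%, 8.40% and 8.57% at 250 ng. For both elements the centred values at 250 ng, 0.00 to 0.06 log2 odds for TGCAAATA and 0.10 to 0.12 for TGAACATA, were above those of every ADARcdMUT library.

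The 250 ng calls against ADARcdMUT fell from 3 to 0 without 250 ng replicate 3. The call of TGAACATA was also lost without ADARcdMUT replicate 2 or 3 and without 250 ng replicate 1 or 2. With the share of edited reads as the measure 1 member, TGGATATA, was called. At 25 ng against ADARcdMUT, 1 of 12 members was called higher, against 7.55%, and 1 lower, against 2.49%. These were TGCAAATA, with 0.22 log2 odds (limma adjusted p = 0.0248), and TGGATATA, with -0.29 (limma adjusted p = 0.0303). Both were lost without 25 ng replicate 1 or 2 and when only the 2 compared groups were fitted, and without ADARcdMUT replicate 1 only TGAACATA was called.

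Set against the consensus element with the same base 5, every member fell behind with induction. The value tested was the member's log2 odds minus that of its consensus element in the same library, over 840 elements with 1 or 2 substitutions that share the 4 consensus elements. Between no induction and 250 ng this difference fell for 12 of 12 members, by a median of 0.77 log2 odds, and for 99.3% of the 840 elements, whose median was -0.81. With such a background the count does not set the members apart. It describes how far each consensus element rose above nearly all elements derived from it.

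The size of the lag was largest for TGGATATA, whose difference from TGTATATA fell by 1.20 log2 odds (SE 0.164, limma adjusted p = 7.71e-06). The smallest changes were -0.55 (SE 0.106) for TGAAGATA against TGTAGATA and -0.55 (SE 0.0945) for TGCACATA against TGTACATA. TGTAGATA rose least of the 4 consensus elements, by 2.87 log2 odds on the uncentred scale. At 25 ng the differences also fell for 12 of 12 members, from -0.52 (TGAAGATA) to -1.03 (TGGATATA), beside 99.5% of the 840 elements. Against ADARcdMUT alone 12 of 12 fell at 250 ng (100% of the 840) and at 25 ng (99.9%). With a minimum of 5000 reads TGTATATA and TGGATATA were left out, and the 9 members that could still be compared all fell in these 4 comparisons.

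The members' gains were also set against those of the consensus. The gain of a member over its non-induced mean was 43.6% (TGGATATA) to 58.3% (TGAAGATA) of its consensus element's gain at 25 ng, with a median of 51.3%. At 250 ng it was 48.3% (TGGATATA) to 64.1% (TGAAGATA), with a median of 55.1%. The gains themselves ran from 5.83 percentage points for TGGATATA to 7.08 for TGCACATA at 250 ng. Those of the consensus elements ran from 9.74 (TGTAGATA) to 12.1 (TGTATATA). The gain of TGAAGATA was 6.24 points, near the members' median of 6.23, so its high percent was taken against the smallest consensus gain.

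Most of that gain was shared with elements that hold no TGT. When the median of the elements without TGT was subtracted in each 250 ng library, the members' excess had a median of 0.289 percentage points. It was lowest for TGGAAATA, at -0.0243 points, and highest for TGCACATA, at 0.984 ± 0.137 points (SD, n = 3). The consensus elements had excesses of 3.69 to 6.09 points. As a percent of the matched consensus excess, the members kept -0.404% (TGGAAATA) to 17.4% (TGCACATA), with a median of 5.03%. At 25 ng the excess had a median of 0.227 points, and as a percent of the matched consensus excess it ran from -2.97% (TGAAGATA) to 18.4% (TGAATATA), with a median of 8.21%. The excess is a difference of levels, so it includes what an element already had without induction, as in TGGATATA and TGGAGATA. In each 250 ng library 10 or 11 of the 12 members lay above the library's median entry, as did 7 to 9 at 25 ng, 4 to 7 without induction and 4 to 8 with ADARcdMUT alone.

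The choice of new base was compared in the 12 pairs of members that share base 5. The test was on the difference within each library, with p-values adjusted over the 84 such pairs at all 7 fixed positions. With 250 ng against no induction, 2 of 12 pairs were called, beside 19% of the 84 pairs. In both, TGGATATA responded less than the other element. It fell behind TGAATATA by 0.46 log2 odds (95% interval 0.21 to 0.70, limma adjusted p = 0.0184) and behind TGCATATA by 0.39 (0.22 to 0.57, limma adjusted p = 0.0137).

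The levels show where this difference lay. TGAATATA had 1.63%, 2.03% and 1.55% without induction and 8.16%, 8.40% and 8.72% at 250 ng. TGCATATA had 1.67%, 1.99% and 1.75% without induction and 8.10%, 8.62% and 8.55% at 250 ng. All of their non-induced values lay below the 3 of TGGATATA, and at 250 ng those of TGCATATA overlapped them while those of TGAATATA lay above, the lowest of them barely (8.16% against 8.15%).

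The same 2 pairs were called at 25 ng against no induction, with differences of 0.46 and 0.34 log2 odds (limma adjusted p = 0.0167 for both) beside 11.9% of the 84 pairs. They were also called for 250 ng against ADARcdMUT, with 0.41 (limma adjusted p = 0.0406) and 0.42 (limma adjusted p = 0.00446), beside 9.52%. These comparisons share libraries, and both pairs share TGGATATA.

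Single libraries again decided some of the calls. In the comparison of 250 ng with no induction, 0 pairs were called without non-induced replicate 1 or 250 ng replicate 2 or 3, 1 without 250 ng replicate 1, and 4 without non-induced replicate 3. At 25 ng, 0 pairs were called without non-induced replicate 1 or 25 ng replicate 1 or 2. Against ADARcdMUT, 1 pair was called without any 1 of the 250 ng replicates or without ADARcdMUT replicate 1 or 3, and TGCATATA against TGGATATA was the pair called in all 12 alternatives that held it. A minimum of 5000 reads removed TGGATATA and left 0 calls among the remaining pairs in all 3 comparisons.

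A and C at position 3 were not told apart. For 250 ng against no induction the difference A minus C was 0.06 log2 odds with A at position 5 (95% interval -0.17 to 0.29), -0.08 with C (-0.23 to 0.08), 0.14 with G (-0.08 to 0.35) and 0.06 with T (-0.13 to 0.25). In this comparison G gave the lower fitted response in each of the 8 pairs it was part of, but outside the 2 called pairs the differences were 0.08 to 0.24 log2 odds and none was called. The largest of these uncalled differences at 250 ng was TGAAGATA against TGGAGATA (0.24, 95% interval 0.01 to 0.48, limma adjusted p = 0.145). At 25 ng against no induction the order was turned in 1 of the 8, with -0.02 log2 odds for TGCAAATA minus TGGAAATA (95% interval -0.23 to 0.18). Without induction the T3G elements had a median of 1.97% ± 0.229 (SD, n = 3), against 1.75% ± 0.131 for T3A and 1.78% ± 0.0811 for T3C, and the SD of the T3G median was as large as these gaps. TGGATATA, TGGAGATA and TGGAAATA ranked 10, 53 and 240 of 1006 there, while TGGACATA ranked 663, below 4 of the T3A and T3C elements. At 250 ng the 3 medians were 8.04% ± 0.0310, 8.24% ± 0.218 and 8.22% ± 0.233.

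The base at position 5, which the consensus leaves free, was compared in the 18 pairs of members that share base 3, with adjustment over 126 pairs at all fixed positions. In the same comparison, 250 ng against no induction, 2 of 18 pairs were called, beside 15.9% of the 126. TGCACATA rose more than TGCAGATA by 0.29 log2 odds (SE 0.0895, limma adjusted p = 0.0396), and TGGACATA rose more than TGGATATA by 0.34 (SE 0.102, limma adjusted p = 0.0346). TGCAGATA had 1.68%, 1.80% and 2.07% without induction and 7.83%, 7.69% and 8.11% at 250 ng, so its 250 ng values all lay below those of TGCACATA. TGGACATA had 1.78%, 1.97% and 1.58% without induction and 8.07%, 7.86% and 8.07% at 250 ng, which overlaps TGGATATA at 250 ng and lies below it without induction.

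At 25 ng against no induction 1 of 18 pairs was called, beside 11.9% of the 126, and it was TGCACATA against TGCAGATA (0.31 log2 odds, SE 0.0895, limma adjusted p = 0.0338). Against ADARcdMUT at 250 ng 2 of 18 were called, beside 21.4%. Both involved TGGATATA, which lagged TGGAAATA by 0.42 (limma adjusted p = 0.0462) and TGGACATA by 0.38 (limma adjusted p = 0.0177). TGCACATA against TGCAGATA was not called there (0.10, 95% interval -0.09 to 0.29).

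These calls were no firmer than those of the new bases. With 250 ng against no induction, leaving out any single library of the 6 ended at least 1 of the 2 calls. The count was 1 without non-induced replicate 1 or 2, and 0 without non-induced replicate 3 or any 1 of the 250 ng replicates. At 25 ng it was 0 without non-induced replicate 2 or 3 or 25 ng replicate 1 or 2. Against ADARcdMUT it was 0 without any 1 of the 250 ng replicates.

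No shift of the members within the pool was detected between 25 ng and 250 ng. Relative to the library median 0 of 12 members and 0% of all entries were called by limma in either direction, with 0 members and 4 of the 1006 entries at an unadjusted p under 0.05. The members' centred changes ran from -0.08 (TGGAAATA) to 0.05 log2 odds (TGAAGATA), with intervals that reached from -0.27 to 0.23. The difference from the matched consensus moved by -0.19 (TGAATATA) to 0.03 (TGGACATA), and limma called 0 of 12 members and 0% of the 840 elements, with 0 members and 1 element at an unadjusted p under 0.05. On the arcsine square root scale, which lies closer to percentage points than log2 odds do, 12 of 12 members were called lower, beside 95.5% of the 840. The answer for this step therefore depends on the scale, for the members and for the pool.

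ADARcdMUT alone left the members near their non-induced levels. By limma 0 of 12 members were called on the uncentred scale, against 0.199% of all entries called higher and 0% lower, with 1 member and 177 of the 1006 entries at an unadjusted p under 0.05. That member was TGCACATA, at 0.24 log2 odds (95% interval 0.05 to 0.43, limma adjusted p = 0.199). Relative to the library median 0 members were called as well, beside 0.199% higher and 0% lower, with 2 members and 134 entries at an unadjusted p under 0.05. The 2 were TGCAAATA at -0.24 (limma adjusted p = 0.149) and TGCACATA at 0.14 (limma adjusted p = 0.375). Without ADARcdMUT replicate 3, 1 member was called on each scale, and on the centred scale it was TGCAAATA, lower.

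The difference from the matched consensus was not called for any member between these groups either (0 of 12 by limma, beside 0.119% higher and 0% lower, with 3 members and 209 of the 840 elements at an unadjusted p under 0.05). It was called higher for 1 member without ADARcdMUT replicate 1, for 2 without ADARcdMUT replicate 3, and for 1 with a minimum of 5000 reads.

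The number of edits carried by each edited read was a further readout. In TGCACATA it was 1.82, 1.81 and 1.87 without induction and 2.64, 2.62 and 2.63 at 250 ng. In TGGATATA it was 1.78, 1.90 and 1.91 without induction and 2.45, 2.40 and 2.43 at 250 ng. The groups did not overlap in either element, and TGCACATA was above TGGATATA in each 250 ng library. Relative to the library median, 0 of 12 members were called by limma at 250 ng (beside 4.77% of all entries higher and 0.0994% lower) and 0 at 25 ng (beside 2.68% and 0.199%). In each comparison 1 member, TGAATATA, had an unadjusted p under 0.05, at 0.09 and 0.10 on the log2 scale, as did 155 and 122 of all entries. All 4 consensus elements were called higher at 250 ng, by 0.26 to 0.35 on the log2 scale.

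The amount of each recorder RNA, read as its share of the library's reads, was tested with edgeR. For 250 ng against no induction 0 of 12 members were called, beside 0% of all entries in either direction, but 6 members and 430 of the 1006 entries had an unadjusted p under 0.05. DESeq2 called 6 members on the same counts, 4 higher (beside 16.3% of all entries) and 2 lower (beside 14.6%). The 4 were TGCAAATA, TGCACATA, TGCATATA and TGGACATA, and the 2 were TGAAAATA and TGAAGATA. TGCACATA made up 0.108%, 0.106% and 0.108% of reads without induction and 0.125%, 0.122% and 0.141% at 250 ng, without overlap. TGGATATA made up 0.0516%, 0.0404% and 0.0472% without induction and 0.0522%, 0.0461% and 0.0575% at 250 ng, with overlap. For 25 ng and for ADARcdMUT against no induction edgeR called 0 members and 0% of all entries, with 0 and 1 members and 1 and 255 entries at an unadjusted p under 0.05. Whether the share of reads has a part in the editing of TGCACATA was not tested.

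Side by side with the other fixed positions, position 3 had the lowest median level at 250 ng. The median level of the 12 substitutions was 8.14% ± 0.0620 (SD, n = 3) at position 3, 8.31% ± 0.221 at position 1 and 8.66% ± 0.263 at position 2. It was 9.37% ± 0.162 at position 4, 9.55% ± 0.0765 at position 6, 9.14% ± 0.191 at position 7 and 10.3% ± 0.234 at position 8. The values of positions 3 and 1 overlapped between libraries, and in 250 ng replicate 1 position 1 (8.06%) was slightly below position 3 (8.07%). At 25 ng the medians of positions 1, 2 and 3 were 4.51% ± 0.242, 4.57% ± 0.0579 and 4.46% ± 0.269, and their values overlapped between libraries.

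Of the 12 substitutions at each position, limma called 1 higher at position 3 relative to the library median (250 ng against no induction), 3 at position 1, 5 at position 2, 9 at position 4, 9 at position 6, 8 at position 7 and 11 at position 8, beside 9.64% of all entries. The median centred changes were 0.07, 0.12, 0.25, 0.27, 0.36, 0.32 and 0.42 log2 odds in that order. The highest change at position 3 was 0.27, while other positions reached 0.41 (AGTATATA at position 1) to 0.80 (TGTATATT at position 8). TGGATATA was the one element among these 84 substitutions that was called lower, beside 3.38% of all entries, so a single lower call is not more than the background. Against ADARcdMUT alone position 3 did not have the lowest median centred change. At 250 ng it was 0.071 log2 odds at position 1 and 0.075 at position 3. There 4 substitutions were called higher at position 1 and 2 at position 3, beside 10.3% of all entries. At 25 ng the medians were 0.078 and 0.089, with 0 and 1 called higher, beside 7.55%. The differences between positions were not tested, and single substitutions at all positions share the 4 consensus elements from which they are derived.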

How the data were processed

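The deposited tables list, for each element of a library, counts of reads, edited reads and edits, and the library's total read count, per the file headers. The authors also deposited percent values (edited adenosines, share of reads) and an efficiency score, which was not used. The deposited percent of edited adenosines equals edits over 7 times reads. Aligner, edit caller, filters and build were not given in the sources used here. Entries absent from any library were left out (16 of 1022), and the lowest listed entry had 1015 reads. Groups and replicate numbers came from the sample titles.

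The tested value was log2((edits + 0.5)/(7 × reads − edits + 0.5)). Uncentred, library-centred, consensus-difference and pair values, and edits per edited read, were fitted with limma 3.58.1 (lmFit, eBayes with trend) in R 4.3.3 over all 12 libraries. Reads were tested with edgeR 4.0.16 (quasi-likelihood, TMM), with DESeq2 1.42.0 as an alternative. Adjustment was by Benjamini-Hochberg. Scripts were tested on simulated data. All 12 members, the 4 consensus elements, the entry EMPTY and, at other positions, the highest or lowest element were named. Members and lists were chosen with earlier results of these data known. Alternatives were another pseudocount (5), the share of edited reads, the arcsine square root, a 5000-read minimum, centring on elements without TGT, fits of 2 groups, a replicate block, library totals in place of TMM, leaving out each library, and, chosen after seeing the data, no variance trend.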

Additional observations from a re-analysis of the deposited data

How the results depend on the processing

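No pairing by replicate number was seen in the correlation of same-numbered deviations. It ran from -0.0946 to 0.0737 over 18 pairs of libraries, with 0 over 0.1. Shares of reads were not all free of such pairing. Those of TGCACATA and TGCAAATA were lowest in replicate 2 in each of the 4 groups, while for TGAAAATA the lowest replicate differed between groups. With the replicate block the centred calls at 25 ng against no induction were 2 in place of 1 and the read calls at 250 ng were 5 in place of 0 (DESeq2: 6), and no other count moved by over 1.5 times. The 12 of 12 calls on the uncentred scale and against the consensus held in every alternative in which a member could be fitted. The smaller counts, in either direction, moved. Centred calls at 250 ng against no induction (2) were 4 on the arcsine scale and 1 with 5000 reads (0 to 2 without 1 library). At 25 ng (1) they were 2 on the arcsine scale, with 5000 reads and centred on elements without TGT (0 to 1). Against ADARcdMUT they were 1 with the share of edited reads at 250 ng (3; 0 to 3) and at 25 ng (2; 0 to 3), and 0 at 25 ng with 2 groups. New-base pairs were 0 with 5000 reads in all 3 comparisons, and without 1 library 0 to 4 at 250 ng, 0 to 2 at 25 ng and 1 to 2 against ADARcdMUT. Base 5 pairs at 250 ng (2) were 0 with the share of edited reads and 4 with 2 groups (0 to 1). At 25 ng (1) they were 2 with pseudocount 5, the share of edited reads, the arcsine scale, 5000 reads or 2 groups (0 to 1). Against ADARcdMUT (2) they were 4 on the arcsine scale, 0 with 5000 reads and 1 with 2 groups (0 to 3). ADARcdMUT against no induction gave 0 to 1 member uncentred and centred without 1 library, and 0 to 2 against the consensus (1 with 5000 reads). The consensus difference from 25 to 250 ng gave 12 on the arcsine scale in place of 0, where TGAACATA (-0.0178) and TGGACATA (-0.0187) reversed sign. The cause was not tested. The 3 libraries per group, and the reads of TGGATATA, limit the precision.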

Other observations

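Elements that begin with TGGATA, as TGGATATA does, were looked at together after the values of TGGATATA were seen, so they are a description without a test. There are 7 of them. Without induction their mean levels ran from 2.08% (TGGATACA) to 2.33% (TGGATATG), and with ADARcdMUT alone from 2.25% (TGGATATG) to 2.53% (TGGATATA), against pool medians of 1.82% and 1.95%. All 7 lay above the library median in the group mean of each of the 4 groups. At 250 ng they ran from 7.94% (TGGATAGA) to 8.45% (TGGATATT), against a pool median of 7.87%. Of the 21 elements that hold GGATA anywhere, 20 lay above the median without induction, 18 at 25 ng, 18 at 250 ng and 20 with ADARcdMUT alone. Among the position 3 members only TGGATATA holds GGATA.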
